A study of Rattus norvegicus with 172 samples.

Results

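The genes described here are Dll1, Notch1, Hes5, Sox2, Pax6, Sox4 and Dcx, which mark or regulate neural progenitors and newborn neurons. They were chosen by symbol and are 7 of the 14218 genes on the arrays. Of 31099 probe sets 19 are annotated to them, and a gene's value is that of its probe set with the greatest average across cord arrays. The comparison asks whether a neurotrophin-3 (NT-3) implant went with signs of neurogenesis in the cut cord, by segment and day.

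Female Wistar rats, 2 months old, had 5 mm of thoracic cord cut out. In the NT-3 tube group a chitosan tube (a polysaccharide conduit) holding NT-3-chitosan carriers was placed in the gap, in the tube alone group an empty chitosan tube, and in the lesion control group nothing. Blocks 5 mm long were taken from the lesion and from the stumps rostral and caudal to it, the stumps on days 1, 3, 10, 20, 30, 60 and 90 and the lesion from day 3, with tube alone in the lesion on day 3 only. Of the 172 arrays 164 hold injured cord, in 55 groups of 3 (2 for tube alone rostral on day 10), 3 hold normal cord, and 5 are technical repeats of a reference RNA made from rat cell lines. Each injured cord array holds RNA pooled from 4 animals, per a protocol that the labels repeat for normal cord, so p-values measure the spread between pools. The blocks include dura and meninges, so each value is of mixed tissue, in which fewer cells of a type and less RNA per cell cannot be told apart.

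Neural progenitors are kept dividing by signalling between neighbouring cells, in which the ligand Delta-like 1 (Dll1) on one cell activates the receptor Notch1 on the next, and the cleaved receptor joins RBPJ to switch on repressors such as Hes5. Sox2 and Pax6 are transcription factors that hold the progenitor state, and in the adult cord Sox2 is also present in ependymal cells and some astrocytes. Sox4 and the microtubule-binding doublecortin (Dcx) come on as cells leave the cycle and become young neurons, although Sox4 is also used widely outside the nervous system.

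RefSeq promoter windows (build GRCr8) were found for 6 of the 7 genes, all but Sox4. The windows of Hes5, a Notch target, and of Dcx, the member with the lowest adjusted p below, are shown as the 250 bases before the start site of the RefSeq promoter table, 5′ to 3′ on the gene's strand. That start lies inside the gene's annotated span for both genes, deep inside it for Dcx, so other starts further upstream are not shown. Capitals mark matches to GTGGGAA, the core that RBPJ recognises, in Hes5, and to AACAAAG, a Sox core, in Dcx.
Hes5 chr5:170804327-170804576 (plus strand): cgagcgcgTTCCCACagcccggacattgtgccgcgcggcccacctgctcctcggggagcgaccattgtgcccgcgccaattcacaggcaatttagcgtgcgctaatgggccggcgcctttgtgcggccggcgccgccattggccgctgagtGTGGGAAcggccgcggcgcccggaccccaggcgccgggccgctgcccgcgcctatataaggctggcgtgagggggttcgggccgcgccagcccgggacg
Dcx chrX:112304162-112304411 (minus strand): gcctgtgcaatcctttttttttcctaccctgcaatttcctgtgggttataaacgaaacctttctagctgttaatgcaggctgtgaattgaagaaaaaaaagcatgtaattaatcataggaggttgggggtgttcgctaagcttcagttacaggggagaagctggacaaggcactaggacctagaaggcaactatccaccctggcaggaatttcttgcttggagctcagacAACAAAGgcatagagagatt
Both strands were searched. Hes5 held the RBPJ core 99 bases before the start and, on the opposite strand, 242 bases before it. Dll1 held it 185 bases before its start on the opposite strand, and no other member's window matched. Of all 33469 windows of this length 5.27% held the RBPJ core. The Sox core was found in the Dcx window alone among the members, 20 bases before the start, and in 5.14% of all windows. A match describes the letters and is not a measured binding site.

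Values are log2 robust multi-array averages (RMA), so 1 unit is a doubling. Array medians lay between 7.10 and 7.25. A gene was tested in a segment where the mean of at least 1 group reached 6.55, the 40th percentile of all cord values, called the dim limit below. All 7 members were tested in the lesion and 6 in each stump, where Dll1 stayed below the limit in every group (highest group means 6.49 rostral and 6.48 caudal). In the lesion Dll1 passed through 1 group alone, lesion control on day 30, so it entered the test because it was high there. Its values are therefore a description, and the counts of members below leave it out. Dcx passed in the lesion through 3 lesion control groups and normal cord, and Pax6 through 2 lesion control groups, tube alone and normal cord, while every NT-3 tube group lay below the limit for both genes. The sizes of their differences in the lesion, being near background on the NT-3 tube side, may be understated, and days are not ranked by these sizes. The words rose, fell and called are kept for genes whose limma p-value, after Benjamini-Hochberg adjustment across all genes tested, was under 0.05. Tests of NT-3 tube, tube alone and lesion control share arrays and are not independent.

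In the lesion segment 5 of 6 members (all but Dll1 counted) fell in the NT-3 tube group relative to lesion control over days 3 to 90, and none rose. Of all genes tested in this comparison 42% were called, 19% lower and 23% higher. The median difference of these 6 was -0.39, against 0.01 for all genes tested. Dcx fell by 1.24 ± 0.08 on the log2 scale (SE, 18 arrays against 18, limma adjusted p = 1.43e-13). Sox2 fell by 0.86 ± 0.10 (1.82-fold, limma adjusted p = 2.75e-08) and Pax6 by 0.58 ± 0.13 (limma adjusted p = 0.000601). Notch1 fell by 0.20 ± 0.06 and Sox4 by 0.14 ± 0.04. The falls of Sox2, Notch1 and Sox4 were called on each gene's brightest probe set and on none of its others tested. Dll1, not counted, differed by -0.28 ± 0.06. Hes5 did not pass the test, at 0.04 ± 0.04 (limma adjusted p = 0.383).

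**Figure D1:**
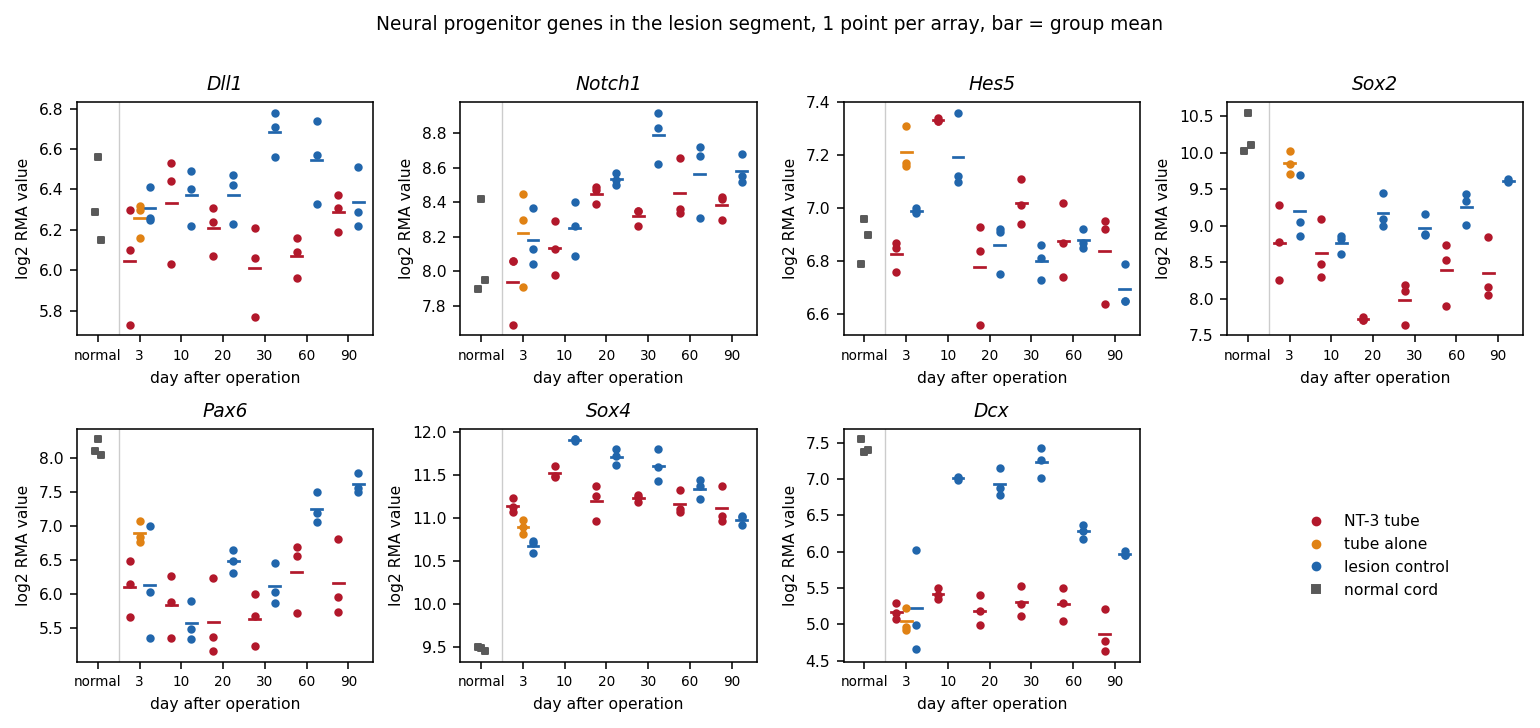
Log2 RMA values of the 7 members in the lesion segment by day after operation, with normal cord at the left, 1 point per array and a bar at each group mean. The NT-3 tube points of Dcx lie between 4.63 and 5.53 on all days, below every lesion control point from day 10 on, whereas those of Hes5 overlap lesion control on 4 of 6 days.

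The cellular make-up of the lesion block also differed between the arms. All 6 skeletal muscle markers fell with the NT-3 tube (median -2.94), as did all 5 markers of sensory ganglion (-1.06), 7 of 8 neuron markers (-0.96) and 5 of 5 oligodendrocyte markers (-0.70). Of 6 astrocyte markers 2 fell and 1 rose. Of 6 macrophage and microglia markers 4 rose (0.34), and of 6 cell cycle genes 4 rose (0.28). The summed marker levels, as the mean log2 value of a list, ran from 5.28 to 9.74 for muscle in NT-3 tube lesions and from 6.52 to 11.5 in lesion control, against 5.49 to 5.65 in normal cord. For neurons they ran from 7.33 to 9.48 in NT-3 tube lesions and from 7.48 to 10.2 in lesion control, against 11.8 to 11.9 in normal cord. The arms' muscle levels did not overlap on days 10, 20, 30 and 90, and their neuron levels did not overlap on days 20 and 90. Astrocyte levels were lower with the NT-3 tube without overlap on days 20 and 90 (day 90: 10.3 to 10.7, against 11.1 to 11.2). Ependyma levels were lower without overlap on day 20. Both lists overlapped between the arms on the other days. Directions were not the same on all days. On day 3 the sensory ganglion level was higher with the NT-3 tube without overlap (7.97 to 9.94, against 7.08 to 7.26). The cell cycle and the macrophage and microglia levels were lower without overlap on day 3 (the latter 10.6 to 10.8, against 11.2 to 11.4). On day 10, when Dcx differed by 1.59, the neuron list lay between 8.12 and 8.80 in NT-3 tube lesions and between 7.97 and 8.90 in lesion control. On that day the muscle, endothelium and fibroblast lists were lower and the cell cycle and macrophage lists higher without overlap. On days 20 and 90 Dcx and the neuron list were both lower with the NT-3 tube without overlap. On days 30 and 60, when Dcx was also lower without overlap, the neuron list overlapped between the arms. On both days the Schwann cell and endothelium lists were lower and the macrophage list higher without overlap. On day 30 the muscle and oligodendrocyte lists were lower without overlap as well. The part of tissue composition in the members' differences was not tested.

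**Figure D2:**
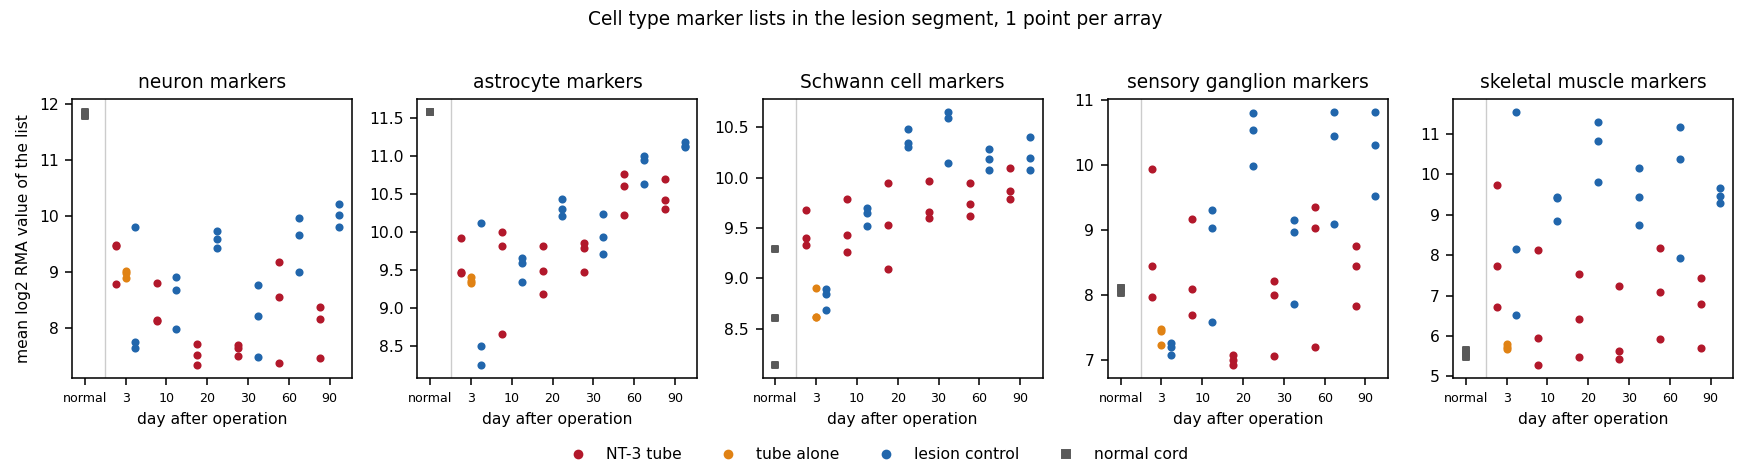
Mean log2 RMA value of 5 cell type marker lists in the lesion segment by day, 1 point per array, with normal cord at the left. Skeletal muscle levels lie higher in lesion control than with the NT-3 tube on days 10, 20, 30 and 90, and neuron levels in both arms lie below normal cord.

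The groups also differed in RT1-CE10, an MHC class I gene whose level split the groups into high and low by day and arm. In the lesion it differed between NT-3 tube and lesion control by 1.20 on day 3, 2.58 on day 20 and 3.86 on day 90, and by 0.54 or less on days 10, 30 and 60, called matched days below. Over the matched days Dcx fell by 1.51, Sox2 by 0.67, Sox4 by 0.31 and Notch1 by 0.23. Pax6 no longer passed the test there (-0.38 ± 0.19, limma adjusted p = 0.126). The part of RT1-CE10 or of what it tracks in the differences on the other days was not tested.

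Dcx, the neuroblast protein, was low in both arms on day 3 of the lesion and did not overlap between them from day 10 on. On day 3 it stood at 5.07, 5.15 and 5.29 in NT-3 tube lesions, against 6.03, 4.99 and 4.66 in lesion control. On day 10 it stood at 5.41, 5.35 and 5.50 in NT-3 tube lesions, against 7.01, 7.03 and 6.99 in lesion control. The arms overlapped on day 3 and were far apart on day 10, a difference of -1.59 ± 0.20 (limma adjusted p = 2.33e-06). On day 20 the values were 5.18, 5.40 and 4.99 in NT-3 tube lesions, against 6.78, 7.15 and 6.88 in lesion control. On day 30 they were 5.53, 5.28 and 5.11 in NT-3 tube lesions, against 7.02, 7.43 and 7.26 in lesion control. The arms again did not overlap on either day, at -1.75 ± 0.20 on day 20 and -1.93 ± 0.20 on day 30. On day 60 the values were 5.30, 5.50 and 5.05 in NT-3 tube lesions, against 6.29, 6.18 and 6.37 in lesion control. On day 90 they were 5.21, 4.63 and 4.77 in NT-3 tube lesions, against 5.95, 5.95 and 6.01 in lesion control. The arms did not overlap on either day (limma adjusted p = 0.000635 on day 60 and 0.000192 on day 90). In all, Dcx was lower with the NT-3 tube without overlap on 5 of 6 days, where 17.5% of all gene and day pairs in the lesion were lower without overlap. The second Dcx probe set stayed below the dim limit in every group (highest array 5.28), so all Dcx values rest on 1 probe set. The lesion control array with 6.03 on day 3 also had the highest neuron and astrocyte levels of its group (9.80 and 10.1, against 7.64 to 7.75 and 8.25 to 8.50 on the other arrays).

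Sox2, the progenitor factor, fell with the NT-3 tube on days 20, 30, 60 and 90. On day 30 it stood at 7.64, 8.18 and 8.10 in NT-3 tube lesions, against 9.16, 8.87 and 8.88 in lesion control. On day 90 it stood at 8.16, 8.05 and 8.85 in NT-3 tube lesions, against 9.61, 9.64 and 9.60 in lesion control. Neither day showed overlap. The differences were -1.46 ± 0.24 on day 20, -0.87 ± 0.24 on day 60 and -1.26 ± 0.24 on day 90, and the adjusted p of limma on day 30 was 0.00364. On day 10 the values overlapped, at 9.09, 8.30 and 8.47 in NT-3 tube lesions and 8.86, 8.61 and 8.82 in lesion control. The Sox2 result rests on its brightest probe set: the second (mean level 7.84) gave -0.12 ± 0.06 (limma adjusted p = 0.108), and the others stayed below the dim limit in the lesion.

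Pax6, which patterns the progenitor zones of the developing cord, fell on days 20, 60 and 90. On day 90 it stood at 5.95, 5.73 and 6.81 in NT-3 tube lesions, against 7.49, 7.55 and 7.78 in lesion control. On day 60 it stood at 6.56, 6.69 and 5.72 in NT-3 tube lesions, against 7.18, 7.06 and 7.49 in lesion control. Neither day showed overlap, and the differences were -1.44 ± 0.32 and -0.92 ± 0.32, beside -0.89 ± 0.32 on day 20. Pools of one group differed more for Pax6 than for any other member in the lesion (median SD 0.38).

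Sox4 was the only member to rise in the lesion on a single day. On day 3 it stood at 11.13, 11.24 and 11.07 in NT-3 tube lesions, against 10.59, 10.71 and 10.73 in lesion control, a rise of 0.47 ± 0.10 (limma adjusted p = 0.00115). On day 10 it stood at 11.49, 11.61 and 11.48 in NT-3 tube lesions, against 11.92, 11.92 and 11.90 in lesion control. The direction thus turned, and Sox4 fell by 0.39 on day 10, 0.51 on day 20 and 0.37 on day 30, while days 60 and 90 did not pass the test (-0.17 and 0.14). On the 5 further probe sets of Sox4 that passed the dim limit the difference averaged over days lay between -0.24 and 0.10, and none was called.

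Of the Notch genes, the ligand Dll1 lay near background. On day 30, when the lesion control group carried it over the dim limit, it stood at 5.77, 6.21 and 6.06 in NT-3 tube lesions, against 6.71, 6.78 and 6.56 in lesion control, a difference given as a description with no test. The receptor Notch1 fell on day 30, at 8.35, 8.26 and 8.35 in NT-3 tube lesions, against 8.83, 8.92 and 8.62 in lesion control (-0.47 ± 0.14), and its second probe set gave -0.08 averaged over days (limma adjusted p = 0.386). The target Hes5 passed on none of the 6 days. Its largest single-day difference was 0.22 ± 0.09 on day 30, at 7.11, 6.94 and 7.01 in NT-3 tube lesions and 6.73, 6.81 and 6.86 in lesion control (limma adjusted p = 0.0872). Over the 6 members other than Dll1 17 of 36 pairs of member and day were called in the lesion, 16 lower and 1 higher, against 21.7% of all gene and day pairs (9.57% lower, 12.1% higher). By day the share of all genes called in the lesion was 18% on day 3, 5.26% on day 10, 33.8% on day 20, 18.3% on day 30, 25.8% on day 60 and 28.8% on day 90. Day 10, on which Dcx and Sox4 were the members called, thus had the smallest background of the 6 days.

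**Figure D3:**
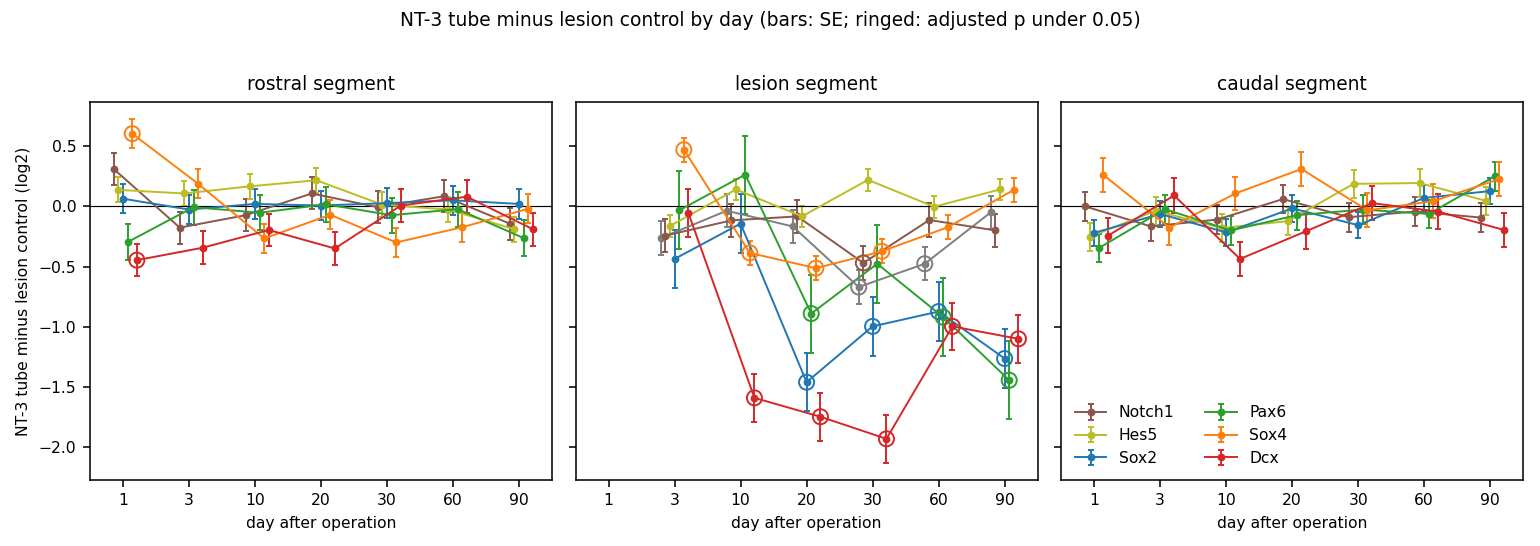
NT-3 tube minus lesion control on the log2 scale by day in the rostral, lesion and caudal segments, with SE bars, rings where the adjusted p is under 0.05, and zero marked by a line. Rings mark 19 points in the lesion, 2 of them Dll1, and 2 on day 1 of the rostral segment, none is caudal, and Dcx in the lesion reaches -1.93 on day 30.

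In the lesion the difference depended on the day for Dcx, Sox2, Sox4 and Pax6 by limma's moderated F test (4 of 6 members without Dll1, against 51.1% of all genes). For Dcx and Pax6 every NT-3 tube group lay below the dim limit, so days are not ranked by this test. Day dependence was called for 1 of 6 members rostral, Sox4, against 29.4% of all genes. None of 6 was called caudal, where 7.59% of all genes were, and 2 had an unadjusted p under 0.05.

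The stumps showed little of this. Rostral to the gap 1 of 6 members was called over days 1 to 90, where 3.04% of all genes were. Dcx fell by 0.21 ± 0.05 (limma adjusted p = 0.0198), and over the matched days, 10, 20, 30 and 60, it no longer passed (-0.12 ± 0.07, limma adjusted p = 0.546). In this stump 3 of 7 NT-3 tube groups and all 7 lesion control groups reached the dim limit for Dcx. The Dcx differences here thus also lie near background. On day 1 Dcx stood at 6.49, 6.19 and 5.68 in NT-3 tube rostral stumps, against 6.51, 6.67 and 6.52 in lesion control, a fall of 0.45 ± 0.14. On the same day Sox4 stood at 9.88, 9.95 and 9.94 in NT-3 tube rostral stumps, against 9.15, 9.31 and 9.50 in lesion control, a rise of 0.60 ± 0.12 (limma adjusted p = 0.00017). Neither overlapped on day 1, a day on which 31.7% of all rostral genes were called and RT1-CE10 differed by 4.08 between the arms. These were 2 of 42 member and day pairs, against 6.44% of all pairs. The fifth Sox4 probe set went the other way on that day, at -0.29 ± 0.11 (limma adjusted p = 0.0372).

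Caudal to the gap limma called 0 of 6 members over days 1 to 90, where 10.2% of all genes were called, and 1, Dcx, had an unadjusted p under 0.05 (-0.14 ± 0.05, limma adjusted p = 0.0773). Of 42 caudal member and day pairs 0 were called, against 2.01% of all pairs, and 5 had an unadjusted p under 0.05. Dcx was lower with the NT-3 tube without overlap on 1 of 7 caudal days (background 11.2% of pairs) and on 3 of 7 rostral days (background 9.67%). With array weights 1 caudal member and 5 caudal pairs were called, with no share of all genes under that setting to set beside them.

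The difference between segments was tested over days 3 to 90. The NT-3 tube minus lesion control difference was lower in the lesion than rostral for 3 of 6 members without Dll1. Of all genes 15.2% were lower there (29.5% called in either direction). Dcx stood at -1.07 ± 0.09, Sox2 at -0.88 ± 0.09 and Pax6 at -0.52 ± 0.12. The arm difference was lower in the lesion than caudal for 4 of 6, against 10.7% of all genes (24% in either direction). Here Dcx stood at -1.11, Sox2 at -0.82, Pax6 at -0.56 and Sox4 at -0.22. The Sox4 call was lost without the arrays numbered 2 and without those numbered 3. Between rostral and caudal limma called 0 of 6, against 0.133% of all genes, and 1 had an unadjusted p under 0.05. On the mean of each gene's probe sets 2 of the 7 members were called against rostral and 3 against caudal, Dll1 among those tested. No share of all genes under that setting stands beside these counts. The labels do not tie the pools of different segments to one another.

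Tube alone was sampled in the lesion on day 3 only. On later days the parts of NT-3 and of the tube itself in the lesion differences therefore cannot be told apart. There Sox2 stood at 9.28, 8.77 and 8.25 with the NT-3 tube, against 9.84, 9.71 and 10.02 with tube alone, a fall of 1.09 ± 0.24 (limma adjusted p = 0.00159). Hes5 stood at 6.76, 6.87 and 6.85 with the NT-3 tube, against 7.17, 7.16 and 7.31 with tube alone, a fall of 0.39 ± 0.09 (limma adjusted p = 0.00243). Neither pair overlapped, and these were 2 of 6 members without Dll1, against 23.5% of all genes. The arms differed by 1.28 in RT1-CE10 on that day, and on the second Sox2 probe set the difference was 0.02. The second Hes5 probe set stayed below the dim limit, and the first lay near it. Dcx, not called, stood at 5.07, 5.15 and 5.29 with the NT-3 tube on that day. It stood at 5.23, 4.97 and 4.92 with tube alone, all below the dim limit. Tube alone against lesion control called 0 of 6 in the lesion without Dll1, against 7.1% of all genes, with 4 at an unadjusted p under 0.05.

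Rostral, 1 of 6 members fell with the NT-3 tube relative to tube alone, Sox4 (-0.13 ± 0.05), against 23.1% of all genes, and caudal limma called 0 of 6, against 3.93%, with 1 at an unadjusted p under 0.05. Tube alone differed from lesion control rostral in 4 of 6, against 30.5% of all genes: Dcx (-0.26 ± 0.05) and Pax6 (-0.18 ± 0.06) fell, and Sox4 (0.13 ± 0.05) and Hes5 (0.11 ± 0.04) rose. Over the days on which these arms matched in RT1-CE10 only Dcx was called among the members (-0.27 ± 0.06, limma adjusted p = 0.00241). No share of all genes for those days stands beside this. Leaving out 1 array, tube alone on day 3 replicate 3 or on day 10 replicate 2, left 2 called. Caudal, tube alone against lesion control called 0 of 6, against 8.65%, with 1 at an unadjusted p under 0.05.

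The 3 normal cord arrays carry no day and an age label of 2 months, so late differences from them cannot be told apart from age. Set against normal cord, Dcx fell in all 3 segments and 3 periods, both with the NT-3 tube and in lesion control. Dcx stood at 7.55, 7.37 and 7.40 in normal cord. In the lesion it differed from normal cord by -2.27, -2.13 and -2.36 with the NT-3 tube early (day 3), in the middle (days 10 to 30) and late (days 60 and 90), and by -2.21, -0.38 and -1.31 in lesion control. The lesion control level thus came within 0.38 ± 0.16 of normal cord on days 10 to 30, while the NT-3 tube level stayed over 2 log2 units below it. In the stumps (early meaning days 1 and 3) the difference of Dcx from normal cord lay between -1.25 and -0.74 in the NT-3 tube group and between -0.97 and -0.54 in lesion control.

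Sox4 stood above normal cord (9.50, 9.49 and 9.45) in all periods and segments except early rostral lesion control (0.13 ± 0.10). In the lesion it rose by 1.67, 1.84 and 1.67 in the NT-3 tube group and by 1.20, 2.27 and 1.68 in lesion control, early, middle and late. In the stumps it rose by at most 1.19 in the NT-3 tube group and at most 1.25 in lesion control, on the first probe set.

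Sox2 and Pax6 fell in the lesion of both arms. Sox2, at 10.02, 10.55 and 10.11 in normal cord, differed by -1.46, -2.12 and -1.86 in NT-3 tube lesions and by -1.02, -1.26 and -0.79 in lesion control, all called. Pax6, at 8.09, 8.27 and 8.04 in normal cord, differed by -2.04, -2.45 and -1.89 in NT-3 tube lesions and by -2.00, -2.08 and -0.71 in lesion control, all called. The stumps went otherwise: late Pax6 rose there, by 0.43 rostral and 0.69 caudal in the NT-3 tube group and by 0.58 rostral and 0.59 caudal in lesion control. Early Pax6 fell in the NT-3 tube stumps (-0.30 rostral, -0.33 caudal), and Sox2 was called in the stumps once, late caudal with the NT-3 tube (0.22 ± 0.09). The dimmer Sox2 probe sets gave another picture in the stumps. Relative to normal cord the second rose late by 0.71 rostral and 0.78 caudal with the NT-3 tube and by 0.82 rostral and 0.86 caudal in lesion control. The third (mean level 5.98) rose late by 1.67 rostral and 1.86 caudal with the NT-3 tube and by 1.89 rostral and 1.84 caudal in lesion control.

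**Figure D4:**
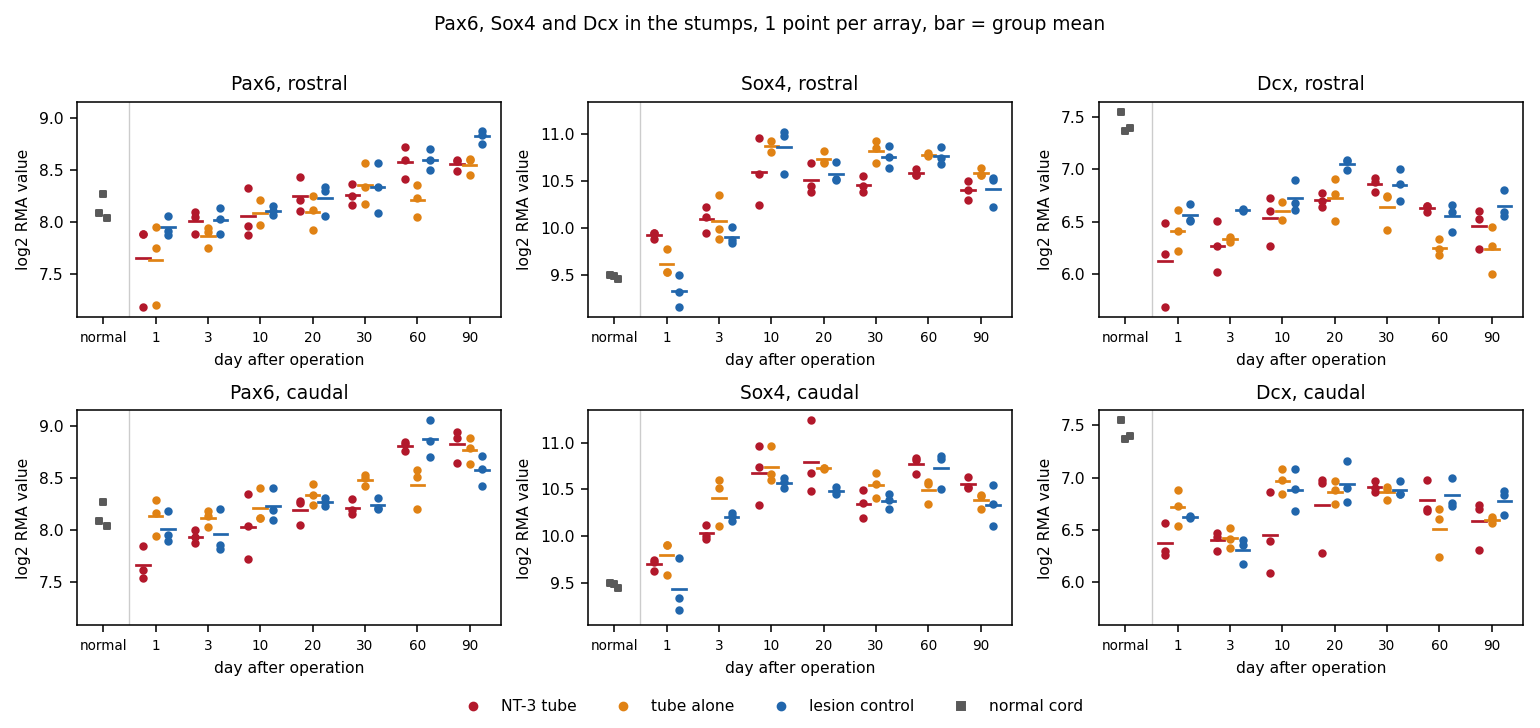
Log2 RMA values of Pax6, Sox4 and Dcx in the rostral and caudal segments by day, with normal cord at the left, 1 point per array and a bar at each group mean. The group means of Sox4 and Pax6 lie higher on day 90 than on day 1 in all 3 arms, and all Dcx points of injured stumps lie below the 3 normal cord points.

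Of the Notch genes, Notch1 rose late in the lesion with the NT-3 tube (0.33 ± 0.12), and in lesion control in the middle (0.43 ± 0.11) and late (0.48 ± 0.12) and late caudal (0.26 ± 0.10). Hes5 passed in 3 NT-3 tube periods (lesion middle 0.16, rostral late -0.25, caudal early -0.23) and 2 lesion control periods (rostral early -0.23, caudal late -0.25). Dll1 differed from normal cord in the lesion by -0.29 to -0.15 with the NT-3 tube and by -0.03 to 0.14 in lesion control.

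In the NT-3 tube group 14 of 18 member and period pairs without Dll1 were called in the lesion, 9 of 18 rostral and 10 of 18 caudal, against 76.6%, 62% and 62.8% of all pairs. In lesion control the counts were 14 of 18 in the lesion, 7 of 18 rostral and 9 of 18 caudal, against 75.7%, 60% and 57.1% of all pairs. The lesion shares of members lie near the background of the comparison with normal cord, and the stump shares below it.

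**Figure D5:**
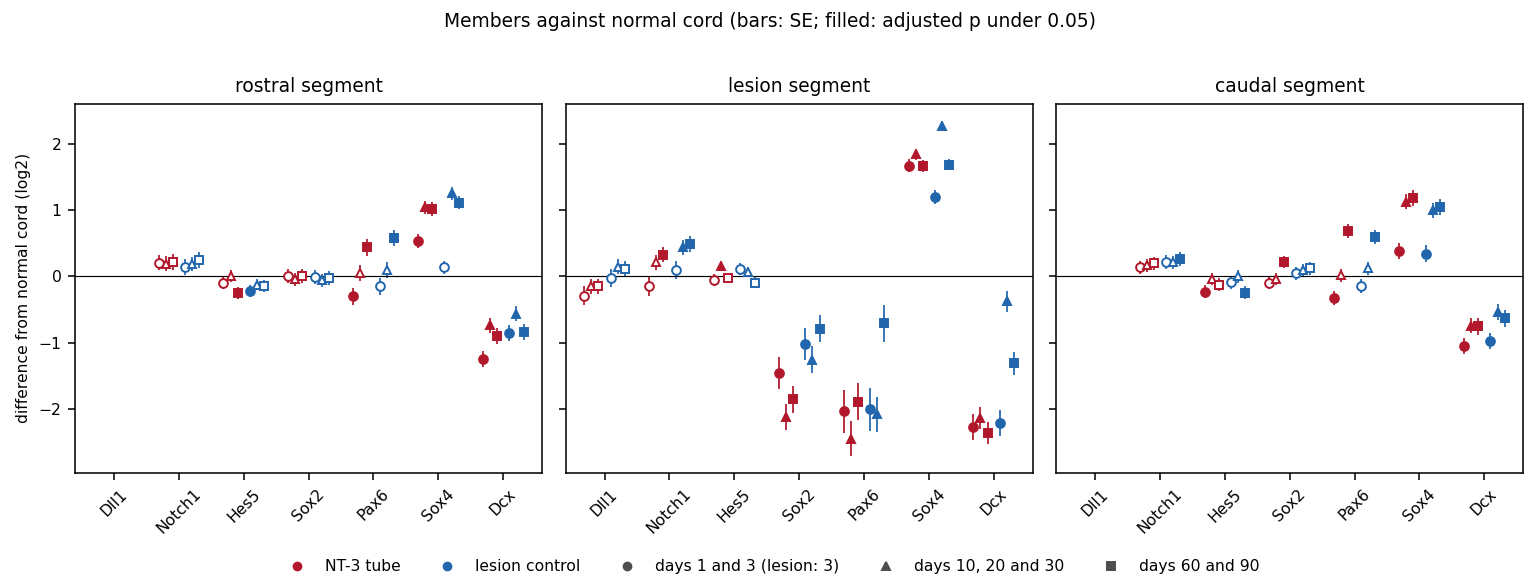
Log2 difference of the NT-3 tube and lesion control groups from normal cord for each member, in 3 segments and 3 periods, with SE bars and filled symbols where the adjusted p is under 0.05. In the lesion Dcx with the NT-3 tube lies between -2.36 and -2.13 while in lesion control it lies at -0.38 in the middle period, and Sox4 lies above zero in both arms.

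Wider lists of the same pathways are set against the 42% of all genes called in the lesion (23% higher, 19% lower). Of 10 further neural progenitor genes tested 3 rose and 2 fell with the NT-3 tube (median 0.06): Prom1, a surface marker of stem cells, rose by 0.38 ± 0.06, while Fabp7, the radial glial fatty acid binding protein, fell by 0.53 ± 0.20 and Sox3, a relative of Sox2, by 0.42 ± 0.11. The progenitor share is near that background. Of 9 proneural and immature neuron genes 8 fell and 1 rose (median -0.38). Tubb3, neuronal tubulin, fell by 1.20 ± 0.22 and the neuronal RNA-binding gene Elavl4 by 1.15 ± 0.22, whereas Dpysl3, a growth cone protein, rose by 0.48 ± 0.15. Both Tubb3 and Elavl4 are also used by mature neurons, whose markers fell in the same samples. Of 25 further Notch pathway genes 7 rose and 3 fell (median -0.01): Rbpj, the nuclear partner of Notch, rose by 0.27 ± 0.04 and the receptor-cleaving protease Adam10 by 0.30 ± 0.11, while Hey1, a Notch target, fell by 0.42 ± 0.07. The Notch share too is near the background. Rostral none of the 3 lists had a called gene. Caudal, Stmn1 and Ncam1 fell by 0.13 each among 8 proneural and immature neuron genes, and Aph1a, a subunit of the protease complex that cleaves Notch, rose by 0.11 among 24 Notch pathway genes.

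Across the 13 lesion groups the members' means did not follow one pattern. Dcx went with Sox4 (Pearson r = 0.76) and Dll1 (0.71), and Sox2 with Pax6 (0.76), while Dcx with Pax6 gave 0.09 and Notch1 with Hes5 -0.54. Across the 42 stump groups Dcx with Sox4 gave 0.36. These values describe group means of arms that share days and segments. Over all 56 groups of cord the gene most like Dcx was Retreg1 (r = 0.87), the one most like Sox2 was Mbp, the myelin basic protein gene (0.97), and the one most like Pax6 was Lmo3 (0.98). The nearest to Sox4 was Mylip (0.96), to Hes5 Gfi1b (0.87), to Notch1 Myh11, smooth muscle myosin (0.73), and to Dll1 the Notch feedback gene Nrarp (0.69), among 11988 genes compared.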

How the data were processed

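Rat cord RNA was hybridised to Affymetrix rat expression arrays. The authors used Affymetrix Expression Console and RMA, per the submitters' processing notes (no versions are given in the sources used here). Their deposited log2 RMA values, for 31099 probe sets on 172 arrays, were taken without further scaling. RMA compresses low signals and equalises arrays, so small differences near background are understated. Precision is limited by how many arrays there are. A single gene symbol is annotated for 20832 probe sets and several for 436, while 9831 are not listed in the annotation used.

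limma (lmFit with 1 mean per arm and day, contrasts, eBayes) was fitted per segment with the normal cord arrays, to 11553 genes rostral, 11922 in the lesion and 11479 caudal. Segment differences came from 1 joint fit of 11989 genes. The scripts were tested on simulated data. Alternatives were to keep dim genes, to repeat quantile normalization, to let the eBayes prior be robust with a trend, to weight arrays, to add a replicate block, to fit a contrast's groups alone, to average a gene's probe sets or use another of them, to restrict to matched days (RT1-CE10 arm means within 1 log2 unit), and to leave out each array in turn. Counting the members without Dll1 was chosen after seeing the data.

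All 7 members are named, with the 3 called genes of largest change per wider list and segment and the genes nearest each member by Pearson correlation of group means. The members, lists and tests were chosen with earlier results of these data known. The wider lists matched 14 of 19 neural progenitor, 18 of 23 proneural and immature neuron and 27 of 31 Notch pathway genes. Of the marker lists not given above, in the lesion 1 of 6 fibroblast markers rose, 3 of 4 endothelium markers fell, 1 of 5 Schwann cell markers rose and 2 fell, 2 of 3 oligodendrocyte precursor markers rose and 1 fell, and 1 of 3 ependyma markers fell.

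The NT-3 tube lesion group of day 20 is numbered 2, 3 and 5, taken as names of arrays. The fits ran in limma 3.58.1 under R 4.3.3, and tables and plots were made in Python 3.11.15 (matplotlib 3.10.9, numpy 2.4.6, pandas 2.3.3).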

Additional observations from a re-analysis of the deposited data

Results flagged for a closer look

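The arm difference (NT-3 tube minus lesion control, days 3 to 90) was not the same in the lesion and the stumps by limma's test in the joint fit. Lesion minus caudal, it was -1.11 for Dcx, -0.82 for Sox2, -0.56 for Pax6, -0.29 for Dll1 and -0.22 for Sox4 on the log2 scale. The lesion minus rostral difference was -1.07 for Dcx, -0.88 for Sox2, -0.52 for Pax6 and -0.33 for Dll1. Dll1 lay below the dim limit in both stumps and in all lesion groups but lesion control on day 30, whose high value admitted it, so its values here and below are a description and no result. Marker lists of muscle, neurons and oligodendrocytes also fell in the lesion, whose part in these differences was not tested.

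The same arm difference varied between days by limma's moderated F test. Dcx and Pax6 lay below the dim limit in every NT-3 tube lesion group. In the lesion the adjusted p was 3.45e-05 for Dcx, 9.73e-06 for Sox4, 0.0144 for Sox2 and 0.0224 for Pax6. Dll1, admitted through its high lesion control group of day 30, stood at 0.0352, which is no result. In the rostral stump the adjusted p was 0.000846 for Sox4. Rostral Sox4 differed by 0.60 on day 1 and by -0.27 ± 0.12 on day 10, the last not passing the test (limma adjusted p = 0.907). RT1-CE10 also differed between the arms by day, and its part was not tested.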

How the results depend on the processing

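The lesion falls of Dcx, Sox2, Sox4, Pax6 and Notch1, averaged over days, stayed called without any 1 of the 36 arrays. Dcx lay at -1.28 to -1.17, Sox2 at -0.91 to -0.82 and Pax6 at -0.65 to -0.51. Notch1 lay at -0.23 to -0.18 and Sox4 at -0.16 to -0.12. In 8 other settings 4 to 6 members, Dll1 (no result) included, were called. RMA values near background tell little, which limits Dll1, Dcx and Pax6 in the lesion, and 3 pools a group limit single days. Over all results and settings, counts without Dll1 aside, 6532 values kept direction and call, 326 moved, 210 lost a call, 157 gained one and 14 reversed.

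The counts in this and the following paragraphs include Dll1. With array weights, whose estimate stopped before its tolerance, the count of calls was 5 for caudal single days, 6 for rostral single days, 1 for caudal averages, 14 caudal and 13 rostral for lesion control against normal cord, 2 caudal and 4 lesion for NT-3 tube against tube alone, 1 caudal and 2 lesion for tube alone against lesion control, 5 caudal and 4 rostral for day dependence, and 1 for rostral against caudal. With the mean of all probe sets of a gene it was 10 for lesion single days, 0 for rostral averages, 1 for NT-3 tube against tube alone in the lesion, 3 for rostral day dependence, 3 for lesion against caudal, 2 for lesion against rostral, and 2 caudal and 2 rostral for tube alone against lesion control. On matched days it was 0 for rostral averages, 2 caudal and 0 rostral for NT-3 tube against tube alone, and 1 for tube alone against lesion control rostral. No matched day exists for NT-3 tube against tube alone in the lesion, and probe sets below the dim limit gave no value.

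Reversals came with other probe sets, and the cause was not tested. For Sox4 the fifth gave 0.0061 for the lesion average (the one before it 0.10), 0.012 for lesion minus caudal, -0.29 for rostral day 1 and -0.041 for tube alone minus lesion control rostral. Against normal cord it gave -0.19 early caudal, -0.23 early rostral and -0.063 late rostral for the NT-3 tube, and -0.073 early and -0.02 middle caudal for lesion control. On lesion day 30 the third gave 0.17 and the next 0.24. Sox2 minus tube alone in the lesion was 0.02 on the second probe set, and Hes5 in NT-3 tube lesions minus normal cord, middle, was -0.054 on the mean of its probe sets.

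Leaving out 1 array at a time, counts ranged from 17 to 19 for lesion single days, from 0 to 1 for caudal single days (1 without NT-3 tube caudal day 1 replicate 2 or day 10 replicate 2) and from 1 to 3 for rostral single days (1 without NT-3 tube day 1 replicate 3 or lesion control day 1 replicate 2). Caudal averages ranged from 0 to 1 (1 without NT-3 tube day 1 replicate 2, day 10 replicate 2, day 20 replicate 1 or day 20 replicate 3), and rostral day dependence from 1 to 2 (2 without NT-3 tube day 1 replicate 1). NT-3 tube against tube alone ranged from 0 to 1 caudal (1 without NT-3 tube day 10 replicate 2) and from 0 to 2 rostral (2 without NT-3 tube day 10 replicate 3, and 0 without NT-3 tube day 3 replicate 2, day 10 replicate 1, day 20 replicate 2 or day 90 replicate 3, or tube alone day 1 replicate 1, day 3 replicate 3, day 10 replicate 2 or day 30 replicate 3). Tube alone against lesion control ranged from 0 to 1 caudal (1 without tube alone day 3 replicate 1 or lesion control day 1 replicate 3), from 0 to 2 in the lesion (2 without lesion control day 3 replicate 1) and from 2 to 4 rostral (2 without tube alone day 3 replicate 3 or day 10 replicate 2).

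Without the arrays of 1 number the count for lesion minus caudal was 4 in all 3 runs, against 5 (Dll1 lost without number 1, Sox4 without number 2 or 3), and for lesion minus rostral 4 to 5 (Notch1 added without number 2).

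Same-numbered arrays of NT-3 tube and lesion control did not deviate together (median correlation 0.01 rostral, -0.02 lesion and 0.03 caudal, with 8 of 21, 7 of 17 and 5 of 21 pairs over 0.1), so the numbers were not taken as pairs. Between segments of the same arm and day the medians were 0.113 for rostral with caudal (32 of 62 over 0.1), 0.0749 for lesion with rostral (18 of 38) and 0.043 for lesion with caudal (14 of 38). With these as a block counts stayed 5 and 4. With a replicate block Dcx in the lesion fell by 1.21, and counts were the same except 15 for NT-3 tube lesions against normal cord and 3 for NT-3 tube against tube alone in the lesion, where Pax6 was added (-0.79 without the block).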
